A study of Mus musculus with 2 samples.

Results

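The cells described here are the neutrophils of mouse tumours that carried an interferon signature, 333 cells in all, of which 119 came from the CEP library and 214 from the vehicle library. They were chosen from droplet single-cell RNA sequencing by unique molecular identifiers (UMIs), each of which marks 1 captured RNA molecule. A barcode was kept with at least 200 detected genes and at most 15% of its UMIs from mitochondrially encoded genes. A kept barcode was taken as a neutrophil with at least 3 of the 7 neutrophil genes Csf3r, Cxcr2, G0s2, Hdc, Stfa2l1, Retnlg and Clec4d detected. It also had fewer than 3 UMIs of the macrophage genes C1qa, C1qb and C1qc together, no UMI of the T cell genes Cd3d, Cd3e and Cd3g, and fewer than 10 UMIs of the granule genes Camp, Ngp and Ltf. Neutrophils with at least 4 UMIs of Rsad2, Ifit1 and Ifit3 together are called members here, and the remaining 1560 CEP and 1911 vehicle neutrophils are called other neutrophils. The members stood within 9544 kept cells of the CEP library and 9932 kept cells of the vehicle library.

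The CEP group received cepharanthine, a bisbenzylisoquinoline alkaloid from plants of the genus Stephania, and the other group, labelled Vehide, received vehicle. Tumour tissue, stated as 5 biological replicates per group, was digested with collagenase D and DNase I, and immune cells were enriched with antibody beads against CD45, the surface protein shared by leukocytes. Each group was deposited as 1 library with no label that ties a cell to an animal, so no difference below has a replicate check and none was tested. The tumour model, the mouse strain, the dose and the schedule are not given in the sources used here. All intervals are 95% intervals for counting error only, so they say nothing of how much cells, animals or preparations vary. They are exact, except those for ratios of member shares, which are approximate.

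Neutrophils are short-lived granulocytes that leave the bone marrow fully armed with granules, and in tumours they can take on several transcriptional states. Type I interferons signal through the receptor chains Ifnar1 and Ifnar2 to a transcription factor complex that holds Stat2 and Irf9 and switches on antiviral genes through the interferon-stimulated response element. Interferon-gamma signals through Ifngr1 and Ifngr2 and favours the guanylate-binding proteins, Irf1 and antigen presentation genes, and many genes answer to both interferons.

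To show the regulatory sequence in front of genes that mark these cells, the 250 bases upstream of the transcription start are printed for the 3 genes of the rule, for Isg15 and Cxcl10, which were higher in members of both libraries, and for Gbp2, which differed between the libraries. The sequences are those of RefSeq on build GRCm38.p6, read 5′ to 3′ on the strand of the gene. Capitals mark matches to GAAANNGAAA on either strand, TTTCNNTTTC being the reverse complement, a simple form of the interferon-stimulated response element. Rsad2 is at chr12:26456453-26456702 on the minus strand, Ifit1 at chr19:34640639-34640888 on the plus strand and Ifit3 at chr19:34583279-34583528 on the plus strand. Isg15 is at chr4:156200819-156201068 on the minus strand, Cxcl10 at chr5:92348890-92349139 on the minus strand and Gbp2 at chr3:142620413-142620662 on the plus strand.
Rsad2: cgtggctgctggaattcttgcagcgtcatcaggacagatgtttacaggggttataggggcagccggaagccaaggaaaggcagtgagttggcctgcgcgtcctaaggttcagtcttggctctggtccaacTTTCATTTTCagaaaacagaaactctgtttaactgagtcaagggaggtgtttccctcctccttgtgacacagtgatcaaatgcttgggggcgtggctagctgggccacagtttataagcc
Ifit1: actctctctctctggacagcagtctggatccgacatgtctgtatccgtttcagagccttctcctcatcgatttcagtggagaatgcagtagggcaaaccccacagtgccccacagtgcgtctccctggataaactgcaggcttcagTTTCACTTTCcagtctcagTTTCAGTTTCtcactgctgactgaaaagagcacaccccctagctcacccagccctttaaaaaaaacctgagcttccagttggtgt
Ifit3: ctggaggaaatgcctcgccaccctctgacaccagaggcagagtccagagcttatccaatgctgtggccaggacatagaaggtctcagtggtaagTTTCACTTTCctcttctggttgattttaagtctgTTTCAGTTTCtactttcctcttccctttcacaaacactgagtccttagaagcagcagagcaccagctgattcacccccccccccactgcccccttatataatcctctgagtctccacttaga
Isg15: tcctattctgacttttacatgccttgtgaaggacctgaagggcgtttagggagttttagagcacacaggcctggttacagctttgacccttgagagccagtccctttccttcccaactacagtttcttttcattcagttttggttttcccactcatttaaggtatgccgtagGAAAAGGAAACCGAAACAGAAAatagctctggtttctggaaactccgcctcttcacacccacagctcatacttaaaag
Cxcl10: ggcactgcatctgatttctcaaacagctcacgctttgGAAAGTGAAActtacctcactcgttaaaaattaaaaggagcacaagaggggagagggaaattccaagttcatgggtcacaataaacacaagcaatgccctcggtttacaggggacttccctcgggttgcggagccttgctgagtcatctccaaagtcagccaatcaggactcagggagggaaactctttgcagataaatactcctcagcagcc
Gbp2: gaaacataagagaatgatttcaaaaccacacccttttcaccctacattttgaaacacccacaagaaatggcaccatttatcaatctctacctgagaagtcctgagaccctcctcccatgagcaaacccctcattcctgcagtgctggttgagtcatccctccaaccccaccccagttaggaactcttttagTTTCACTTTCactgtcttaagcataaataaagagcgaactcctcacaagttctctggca

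The motif was matched 1 time for Rsad2, 2 times each for Ifit1 and Ifit3, 3 times in overlapping runs for Isg15, and 1 time each for Cxcl10 and Gbp2. Over windows of 300 bases, 250 before and 50 after the start, 3.44% of 32851 RefSeq promoters and 3.99% of 27025 genes held at least 1 match. Of the 15 genes named below as highest in members, 12 had a promoter entry and 7 of these held a match. No match was found in the entries of Cmpk2, Ifit2, Oasl1, Herc6 and Rnf213, nor in those of Slfn4, Cd274 and Csf3r. A match is a run of letters and was not tested as a binding site.

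Several of the genes lie side by side in the genome. By the GENCODE annotation of GRCm38, the 5 Ifit genes span chr19:34550694-34650009, a stretch of 99.3 kb. Rsad2, which encodes the antiviral enzyme viperin, and Cmpk2, a mitochondrial nucleotide kinase, are neighbours on chromosome 12 with 12.8 kb between them. Ifit3 and Ifit3b are near-identical copies, as are several Slfn, Gbp and H2-Q genes, so the single values of such genes are uncertain.

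The members were neutrophils by a gene that the rule did not use. S100a8, a calcium-binding protein abundant in neutrophils, was found in 112 of 119 CEP members and in 207 of 214 vehicle members. In C1q cells, gated on at least 10 C1q UMIs and fewer than 3 of the neutrophil genes, which are deeper and should lack S100a8, the gene was found in 13% of 3987 CEP cells and in 12.0% of 4587 vehicle cells. Its level, in UMIs per 1000000 UMIs of the cells summed (CPM), was 23999 in CEP members and 30689 CPM in vehicle members, against 37.0 and 24.0 CPM in the C1q cells of the CEP and vehicle libraries. Slfn4, a Schlafen gene of myeloid cells, was found in 107 CEP and 196 vehicle members, against 6.12% of CEP and 4.53% of vehicle C1q cells. It was also found in 36.4% of CEP and 22.8% of vehicle cells with at least 5 UMIs of Ly6c2, Ccr2 and Plac8 and few of C1q. In other neutrophils its share was 48.4% in CEP and 53.8% in vehicle. Slfn4 was higher in members than in other neutrophils, so its share in members is not independent of how they were chosen. Csf3r, the receptor for granulocyte colony-stimulating factor, a rule gene, was found in 95 CEP and 162 vehicle members, against 16.9% of the C1q cells of each library, whose gate limits this gene.

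Members were no deeper in the CEP library than in the vehicle library at the median, with 2060 UMIs and 740 genes per CEP member and 2096 UMIs and 755.5 genes per vehicle member. In each library 15 members had over 5000 UMIs. Other neutrophils were shallower, with a median of 1639 UMIs in the CEP library and 1667 UMIs in the vehicle library, and all kept cells had medians of 6701 and 6305 UMIs in those libraries. Mitochondrial genes gave a median of 0.335% of the UMIs of CEP members and 0.265% of those of vehicle members. Between the libraries 136 barcodes were shared, among them the barcodes of 2 CEP and 5 vehicle members, and no barcode was a member in both.

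A few deep cells among the members carried genes of other cell types. In 12 CEP members and 8 vehicle members at least 3 UMIs came from epithelial genes (Epcam, Krt8, Krt18), from collagen genes, or from monocyte and macrophage genes (Ly6c2, Ccr2, Csf1r, Ms4a7, Adgre1, Mrc1). These marked cells held 38.8% of all UMIs of CEP members and 14.3% of those of vehicle members. Of the CEP cells, 10 were marked by monocyte and macrophage genes and 2 by epithelial genes, and of the vehicle cells 6 and 2. Because sums of UMIs weigh deep cells most, values without the marked cells are given beside those over all cells for the results that turn on them, a choice made after the data were seen. Whether the marked cells are doublets of a neutrophil and another cell was not tested.

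Over the whole marker lists of other types, the 12 T and NK cell genes and the 6 B cell genes gave 0 UMIs in CEP members, and 0 and 1 UMI in vehicle members. The rule itself sets Cd3d, Cd3e and Cd3g of the T cell list to 0. It also limits C1qa, C1qb and C1qc of the macrophage list, so these genes say nothing here. The 12 macrophage genes summed to 2592 CPM in CEP members and 1848 CPM in vehicle members, against 2316 and 1720 CPM in other neutrophils of the CEP and vehicle libraries. The 10 monocyte genes summed to 1818 CPM in CEP members and 1204 CPM in vehicle members, against 1102 and 835 CPM in other neutrophils. The 9 dendritic cell genes summed to 719 CPM in CEP members and 602 CPM in vehicle members, against 551 and 373 CPM in other neutrophils. The 8 epithelial genes summed to 491 CPM in CEP members and 477 CPM in vehicle members, and to 17.2 and 2.08 CPM once the marked cells were left out. With the marked cells left out of both members and other neutrophils, the monocyte sum was higher in members, at 875 CPM in CEP members and 841 CPM in vehicle members, against 411 and 446 CPM in other neutrophils. The macrophage sum was then lower in members, at 777 CPM in CEP members and 679 CPM in vehicle members, against 1166 and 1104 CPM in other neutrophils. The dendritic cell sum was also lower then, at 116 CPM in CEP members and 102 CPM in vehicle members, against 219 and 217 CPM in other neutrophils. The marked cells were picked by genes of the epithelial, monocyte and macrophage lists, so leaving them out lowers these sums by design. It took 38.8% of the UMIs of CEP members and 24.6% of those of other CEP neutrophils. In vehicle it took 14.3% and 11.1%. The lower macrophage and epithelial sums of members are therefore not evidence on their identity. Most of the monocyte sum in members came from Plac8, so it speaks mainly for 1 gene. Plac8 stood at 680 to 794 CPM in unmarked CEP members split by UMIs of Rsad2, Ifit1 and Ifit3. The same steps of unmarked vehicle members gave 609 to 953 CPM. Unmarked neutrophils without such UMIs had 247 CPM in CEP and 333 CPM in vehicle. Plac8 was also found in 81% of CEP and 87% of vehicle neutrophils with at least 10 UMIs of Camp, Ngp and Ltf. What part the monocyte genes have in the differences between members and other neutrophils was not tested.

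Rsad2 dominated the choice of members. It gave 75.1% of the rule UMIs in CEP members, or 1028 UMIs, and 79.8% in vehicle members, or 1900 UMIs. Ifit1, which binds foreign RNA, and its partner Ifit3 gave 254 and 87 UMIs in CEP members and 372 and 108 UMIs in vehicle members. Rsad2 was detected in 119 of 119 CEP members and 210 of 214 vehicle members, and 101 CEP and 187 vehicle members would have qualified by Rsad2 alone. All 3 genes were detected in 27 CEP and 33 vehicle members, and a single gene in 36 CEP and 71 vehicle members. These counts restate the rule and support nothing further.

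Within the members the strength of the signature spread widely. The rule genes had a median of 8 UMIs per cell in both libraries, with a maximum of 75 UMIs in a CEP member and 63 UMIs in a vehicle member. At least 10 UMIs were present in 46 CEP members (38.7%) and 92 vehicle members (43.0%). Just inside the threshold, with 4 or 5 UMIs, stood 37 CEP and 63 vehicle members. Just outside it, with 2 or 3 UMIs, stood 81 CEP and 130 vehicle neutrophils.

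Isg15, which the rule did not use, followed the rule genes in steps, with no break at the threshold. It encodes a ubiquitin-like protein that is joined to other proteins after interferon exposure. In the CEP library it stood at 1209, 2535, 3397, 4699, 6776 and 6411 CPM in neutrophils with 0, 1, 2 to 3, 4 to 5, 6 to 9 and at least 10 UMIs of the rule genes. In the vehicle library the same steps gave 1439, 3156, 4587, 5192, 7432 and 8849 CPM. The last CEP step, lower than the one before it, stood at 10969 CPM without the marked cells, against 9842 CPM in the vehicle library. Isg15 was therefore already above the level of neutrophils without rule UMIs in the cells just outside the threshold.

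Ifit2 and Cmpk2 rested more on the strongest cells. Ifit2, a further member of the Ifit family, stood at 60.3 CPM just outside and 187 CPM just inside the threshold in the CEP library, and at 64.1 and 156 CPM in the vehicle library. In cells with at least 10 rule UMIs Ifit2 reached 453 CPM in the CEP library and 749 CPM in the vehicle library. Cmpk2 stood at 468 CPM in those CEP cells and 865 CPM in those vehicle cells, against 5.11 and 7.32 CPM in neutrophils of the CEP and vehicle libraries without a rule UMI. Csf3r was lower in the strongest cells, at 458 CPM in CEP and 651 CPM in vehicle. Neutrophils without a rule UMI had 781 CPM in CEP and 910 CPM in vehicle. It did not fall in steps, and cells with 6 to 9 rule UMIs had 792 CPM in CEP and 928 CPM in vehicle. Without the marked cells the strongest CEP cells had 934 CPM of Csf3r, against 978 CPM in CEP neutrophils without a rule UMI, so that most of the CEP difference was gone. In the vehicle library the strongest cells then had 766 CPM, against 965 CPM, so that a difference stayed.

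**Figure D1:**
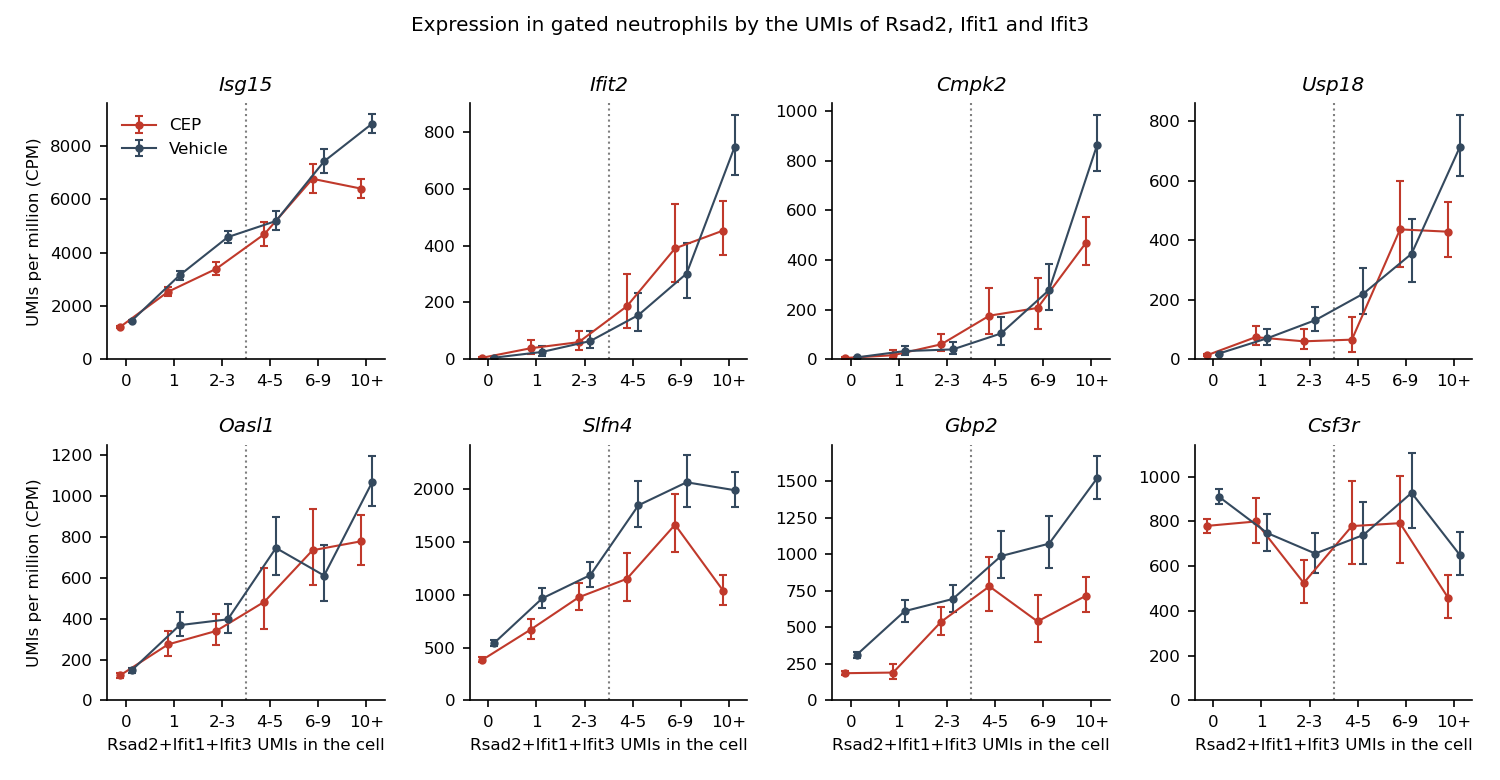
Level of 8 genes in CPM (vertical axes, from 0) in gated neutrophils grouped by their UMIs of Rsad2, Ifit1 and Ifit3 (horizontal axes), CEP in red and vehicle in blue, with exact 95% counting intervals; the dotted line is the threshold for members. Isg15 climbs from 1209 CPM in CEP and 1439 CPM in vehicle cells without rule UMIs, while Csf3r is lower in the strongest cells.

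Members made up a smaller part of the neutrophils in the CEP library. They were 7.09% of 1679 CEP neutrophils (interval 5.91% to 8.42%) and 10.1% of 2125 vehicle neutrophils (8.82% to 11.4%), a ratio of 0.704 (0.568 to 0.872). Of all kept cells they were 1.25% in the CEP library and 2.15% in the vehicle library, a ratio of 0.579 (0.463 to 0.723). After each cell was thinned to 1000 UMIs and the threshold set to 2 UMIs, members were 8.44% of 1410 CEP neutrophils (7.04% to 10.0%) and 11.9% of 1889 vehicle neutrophils (10.4% to 13.4%). Thinning left out 269 CEP and 236 vehicle neutrophils of under 1000 UMIs. With 1 library per group these shares cannot be told apart from differences between preparations.

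Members were then set beside other neutrophils of the same library. The contrast follows the choice of members, so it describes them and was not tested. Genes with at least 50 UMIs in the cells compared were measured, and ratios were taken on summed UMIs with 0.5 UMI added. At least 2-fold higher in members were 294 of 5937 genes in the CEP library, 4.95%, and 190 of 5536 genes in the vehicle library, 3.43%. In both libraries 103 of 5271 genes were higher, 1.95%, and 40 were lower, 0.759%. Of the 103 genes, 58 (56.3%) belonged to the lists of interferon and antigen presentation genes described below. The 58 include Rsad2, Ifit1 and Ifit3, by which the members were chosen. The share of these lists among all 5271 genes was not counted, so nothing is read from this percentage.

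**Figure D2:**
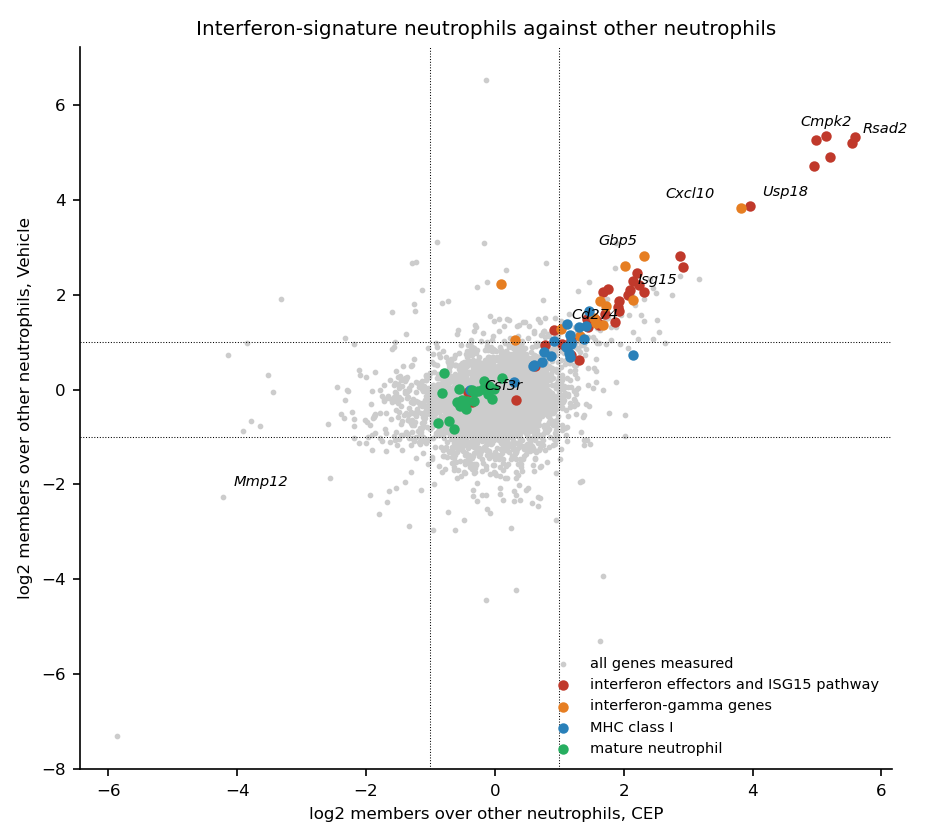
Log2 ratio of members over other neutrophils for each measured gene, CEP on the horizontal and vehicle on the vertical axis, with 0.5 UMI added; dotted lines mark 2-fold. Interferon genes (red, with the rule genes), interferon-gamma genes (orange) and MHC class I genes (blue) lie towards the upper right, with Cmpk2 at 5.13 and 5.34, and mature neutrophil genes (green) lie near 0.

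The antiviral effectors Cmpk2, Ifit2 and Ifit3b headed the 15 genes named as highest in members. Ifit2 stood at 375 CPM in members and 11.7 CPM in other neutrophils of the CEP library, and at 481 and 12.4 CPM in those of the vehicle library, a log2 ratio of 4.99 (4.50 to 5.53) and 5.27 (4.84 to 5.74). Cmpk2 stood at 338 and 9.53 CPM in members and other neutrophils of the CEP library and at 518 and 12.6 CPM in those of the vehicle library, a log2 ratio of 5.13 and 5.34. Ifit3b had log2 ratios of 5.21 in CEP and 4.91 in vehicle. Eif2ak2, the double-stranded RNA kinase PKR, was 2.87 and 2.81 higher on the log2 scale in the CEP and vehicle libraries. Oasl1, which limits translation of Irf7, was 2.23 and 2.20 higher, and Rnf213, a large ubiquitin ligase, 2.15 and 2.29 higher. Tor3a, a torsin ATPase induced by interferon, had log2 ratios of 2.93 and 2.59, and Parp14, an ADP-ribosyltransferase, 2.10 and 2.11.

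Over the effectors and the ISG15 pathway together, without the rule genes, 35 of 39 genes in the table were measured in each library. The median log2 ratio was 1.75 in CEP and 1.58 in vehicle, where the median of all genes was -0.02 and -0.20. At least 2-fold higher were 29 of the 35 genes in CEP and 27 in vehicle. Under 2-fold in both libraries were 5 genes, Ifitm1, Ifitm2, Ifitm6, Samhd1 and Trim25. Ifitm1, Ifitm2 and Ifitm6, membrane proteins of a family that blocks virus entry, had log2 ratios of -0.42, -0.35 and 0.33 in CEP and -0.05, -0.26 and -0.22 in vehicle. Samhd1, which lowers the supply of nucleotides to viruses, had 0.63 in CEP and 0.50 in vehicle. Oas2 was under 2-fold in CEP alone, at 0.93 against 1.26 in vehicle, and Ifi27l2a, Sp100 and Uba7 in vehicle alone, at 0.62, 0.73 and 0.96. Ifitm1 stood at 5295 CPM in members and 7080 CPM in other neutrophils of the CEP library and at 8501 and 8811 CPM in those of the vehicle library. Ifitm3 did differ, at 4261 CPM in members and 1875 CPM in other neutrophils of the CEP library and 4698 and 2276 CPM in those of the vehicle library.

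All 6 genes of the ISG15 pathway were higher in members of both libraries. Isg15 itself stood at 6085 CPM in members and 1460 CPM in other neutrophils of the CEP library, and at 7511 and 1876 CPM in those of the vehicle library. Usp18, the protease that removes Isg15 and dampens the interferon receptor, had log2 ratios of 3.96 (3.55 to 4.38) in CEP and 3.87 (3.57 to 4.18) in vehicle. Herc6, the ligase that attaches Isg15 in mice, had 2.21 and 2.47, and Ube2l6, the conjugating enzyme, 1.75 and 2.11. Uba7, the activating enzyme, and Trim25 were less far from other neutrophils, with log2 ratios of 1.04 and 0.78 in CEP and 0.96 and 0.94 in vehicle.

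RNA sensors were higher in members, while the interferon receptors stood near the level of other neutrophils. Ddx58, which encodes RIG-I, stood at 150 CPM in members and 34.6 CPM in other neutrophils of the CEP library and at 208 and 54.6 CPM in those of the vehicle library. Ifih1, which encodes MDA5, had log2 ratios of 2.12 and 2.0 in CEP and vehicle, and Zbp1, a sensor of Z-form nucleic acid, 1.76 and 1.5. The sensor list had a median of 2.12 over 9 measured genes in CEP and of 1.5 over 7 in vehicle, out of 18. Ifnar1 stood at 57.7 CPM in members and 62.1 CPM in other neutrophils of the CEP library, and at 87.2 and 68.4 CPM in those of the vehicle library. Its log2 ratio was -0.08 (-0.81 to 0.53) in CEP and 0.36 (-0.12 to 0.79) in vehicle. None of the 7 measured receptors and kinases was 2-fold higher in either library, and their median was -0.07 in CEP and -0.16 in vehicle.

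Among the transcription factors, Stat2 and Irf7 stood above the rest. Stat2 had log2 ratios of 2.46 (1.94 to 2.94) in CEP and 2.15 (1.77 to 2.51) in vehicle, and Irf7, which amplifies type I interferon production, 1.71 and 1.46. Irf1 was 0.42 higher in CEP and 0.71 in vehicle. The feedback inhibitor Socs1 had 1.88 (1.56 to 2.19) in CEP and 1.37 (1.13 to 1.61) in vehicle, whereas Socs3, which answers mainly to cytokines that signal through Stat3, had -0.35 and -0.21. Over 14 factors and inhibitors the median was 0.69 in CEP and 0.47 in vehicle, and 4 genes in each library were at least 2-fold higher.

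The 5 measured Schlafen genes of 7 were higher in members of both libraries. Slfn4 stood at 1210 CPM in members and 447 CPM in other neutrophils of the CEP library, and at 1971 and 640 CPM in those of the vehicle library. Slfn5 had log2 ratios of 2.88 and 2.40 in CEP and vehicle, and Slfn8 3.16 and 2.33. Slfn1 and Slfn2 were nearer to other neutrophils, at 0.73 and 0.97 in CEP and at 0.36 and 0.87 in vehicle.

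Genes that favour interferon-gamma were higher in members as well. Gbp2, a guanylate-binding protein that acts on membranes of pathogens, stood at 690 CPM in members and 209 CPM in other neutrophils of the CEP library, and at 1268 and 373 CPM in those of the vehicle library. Gbp5 had log2 ratios of 2.32 (1.79 to 2.82) in CEP and 2.82 (2.51 to 3.13) in vehicle. Over the list the median was 1.66 over 14 measured genes in CEP and 1.76 over 13 in vehicle, and 12 and 13 of them were at least 2-fold higher. Nos2, the inducible nitric oxide synthase, was 0.31 (-0.14 to 0.71) higher in CEP and 1.05 (0.79 to 1.29) in vehicle.

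Cxcl10, a chemokine that attracts T cells through Cxcr3, came from few members. It stood at 761 CPM in members and 53.9 CPM in other neutrophils of the CEP library, and at 783 and 55.3 CPM in those of the vehicle library, a log2 ratio of 3.82 in each. It was detected in 22 CEP members (18.5%) and 44 vehicle members (20.6%), against 2.5% of CEP and 3.51% of vehicle other neutrophils. In C1q cells, which are deeper, the share was 13.8% in the CEP library and 19.4% in the vehicle library. A single cell held 33.4% of the Cxcl10 UMIs of CEP members and 18.9% of those of vehicle members.

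MHC class I genes were moderately higher. H2-K1 and H2-D1, the classical class I chains, had log2 ratios of 0.61 and 0.60 in CEP and of 0.52 and 0.50 in vehicle. B2m, the light chain, stood at 1929 CPM in members and 1056 CPM in other neutrophils of the CEP library and at 1916 and 1172 CPM in those of the vehicle library. Tap1, the peptide transporter, had log2 ratios of 1.39 and 1.06, and the immunoproteasome subunit Psmb9 1.18 and 1.0. Of the measured genes, 12 of 21 in CEP and 8 of 20 in vehicle were at least 2-fold higher, with medians of 1.12 and 0.85.

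Of the checkpoint and T cell ligands, Cd274 and Lgals9 were at least 2-fold higher in both libraries. Cd274, which encodes PD-L1, stood at 619 CPM in members and 303 CPM in other neutrophils of the CEP library, and at 1196 and 495 CPM in those of the vehicle library. Its log2 ratio was 1.03 (0.82 to 1.23) in CEP and 1.27 (1.15 to 1.40) in vehicle. Lgals9, which encodes galectin-9, had 1.05 (0.79 to 1.28) and 1.38 (1.2 to 1.56). The list as a whole had a median of 0.30 over 13 genes in CEP and of -0.05 over 12 in vehicle.

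Among cytokines, Il18 and its soluble inhibitor Il18bp were both higher, with log2 ratios of 1.40 and 1.61 in CEP and of 1.57 and 0.97 in vehicle. Over all cells, with the marked ones, Il1b, which encodes the inflammatory cytokine interleukin-1 beta, was lower. It stood at 5537 CPM in members and 7494 CPM in other neutrophils of the CEP library and at 8054 and 9476 CPM in those of the vehicle library. Il1a had log2 ratios of 0.64 in CEP and 0.99 in vehicle. Among cell death genes, Daxx, a death-domain-associated histone chaperone, had 2.74 and 1.99, Casp1 1.62 and 1.39, and Casp8 1.01 and 1.29. The remaining cell death genes were under 2-fold higher in both libraries.

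**Figure D3:**
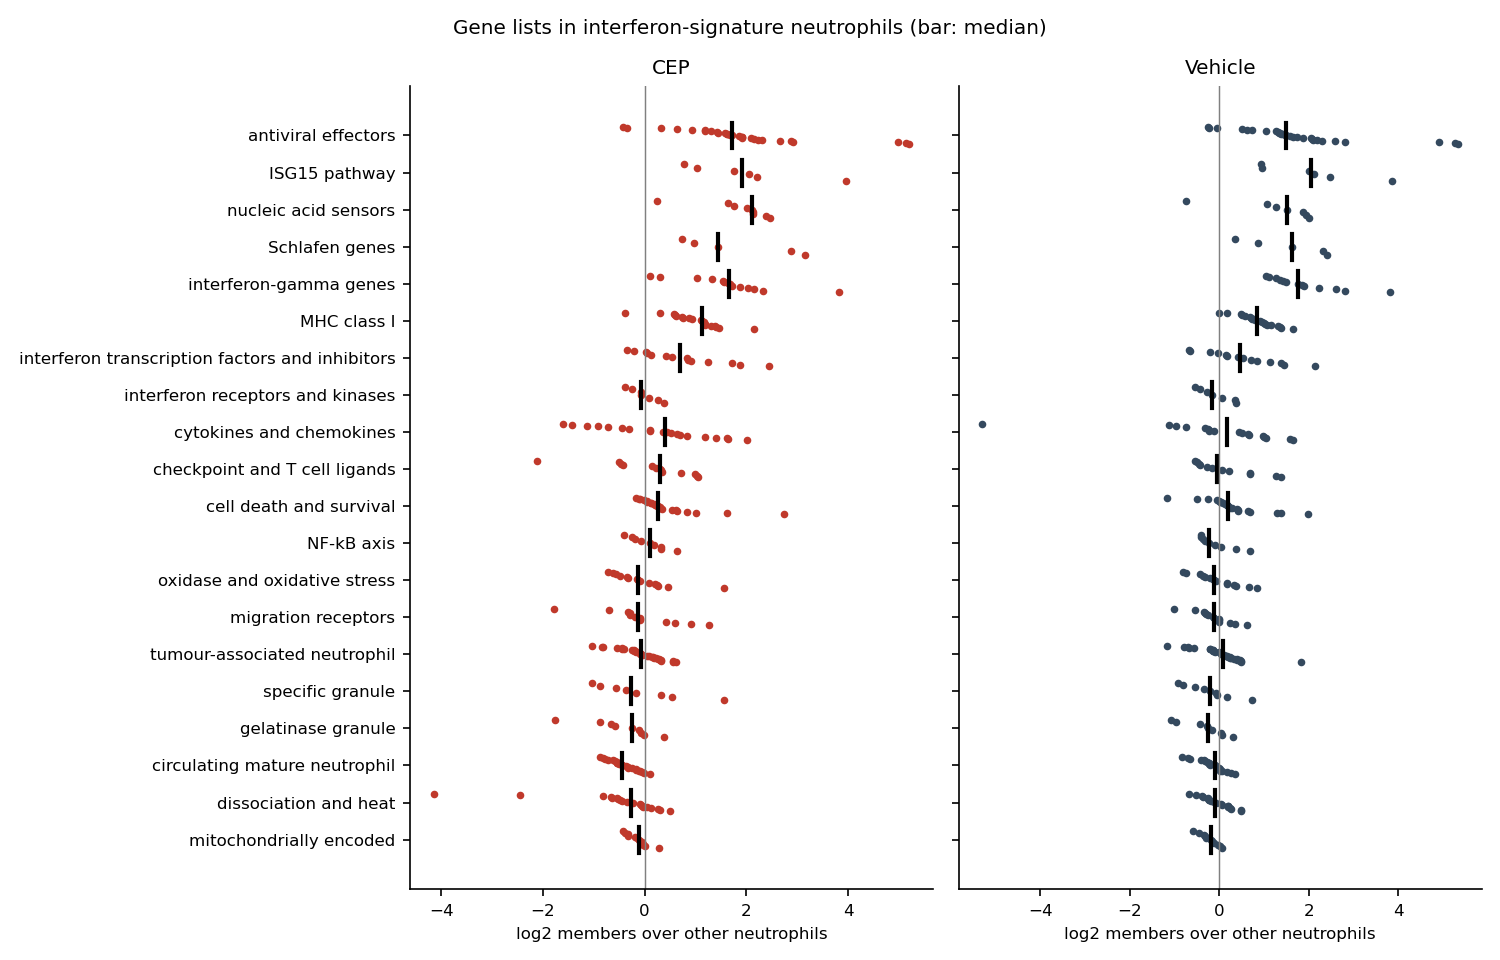
Log2 ratio of members over other neutrophils for each measured gene of 20 lists (points, without the rule genes) in the CEP library on the left and the vehicle library on the right, with the median of each list as a bar. The interferon-gamma list has its median at 1.66 in CEP and 1.76 in vehicle, and the tumour-associated list at -0.07 and 0.08.

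Over all cells, maturity and granule genes were close to or below other neutrophils. The values here include the marked cells, which held 38.8% of the UMIs of CEP members and 24.6% of those of other CEP neutrophils. S100a8 stood at 20459 CPM in CEP cells with at least 10 rule UMIs, against 29783 CPM in CEP neutrophils without one. Without the marked cells these were 36410 and 37595 CPM. What part the marked cells have in the CEP ratios below was not tested. The 23 measured genes of circulating mature neutrophils had a median log2 ratio of -0.44 in CEP and -0.10 in vehicle. Mmp9, the gelatinase of tertiary granules, stood at 252 CPM in members and 467 CPM in other neutrophils of the CEP library and at 324 and 632 CPM in those of the vehicle library, a log2 ratio of -0.88 and -0.96. Lrg1, a secreted glycoprotein, had -0.63 and -0.84, and Cxcr2, the chemokine receptor that draws neutrophils out of the marrow, -0.45 and -0.42. Ly6g, a surface marker of mouse neutrophils, had 0.11 (-0.45 to 0.59) and 0.25 (-0.10 to 0.57). The gelatinase granule list had a median of -0.25 in both libraries, and the specific granule list of -0.27 in CEP and -0.21 in vehicle. Camp, Ngp and Ltf limit the gate itself and say nothing here.

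The tumour-associated programme did not separate members from other neutrophils. Its 32 measured genes of 34 had a median of -0.07 in CEP and 0.08 in vehicle, and 14 and 19 of them were above 0. Ccl3, a chemokine of tumour neutrophils, had -0.21 (-0.40 to -0.03) in CEP and -0.21 (-0.36 to -0.06) in vehicle. Cxcl3 had -0.84 and -0.56, and Il1rn, the interleukin-1 receptor antagonist, 0.57 and 0.21. Over all cells, with the marked ones, Arg1, which consumes arginine, stood at 91.8 CPM in members and 315 CPM in other neutrophils of the CEP library. In the vehicle library it stood at 69.4 and 150 CPM.

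The 10 genes chosen as lowest in members rested on few UMIs. Ctsk, which encodes the protease cathepsin K, had 0 UMIs in members of both libraries and 279 and 570 UMIs in other neutrophils of the CEP and vehicle libraries. With a floor of 3 UMIs over the members, it was at least 9.65-fold lower in CEP and at least 26.5-fold lower in vehicle. A single cell held 80.3% of those CEP UMIs and 46.7% of those vehicle UMIs. Without the marked cells other neutrophils had Ctsk at 2.53 CPM in CEP and 0.279 CPM in vehicle, too few UMIs for a ratio. Mmp12, the macrophage elastase, had 1 UMI in CEP members and 4 in vehicle members, against 268 and 154 in other neutrophils, a log2 ratio of -4.22 (-10.11 to -2.31) in CEP and -2.26 (-4.32 to -1.04) in vehicle. Mmp12 had -2.08 and -0.59 without the marked cells. Ccl24, Car4, Ltc4s, Acp5, Fbrsl1, Rmnd5a, Odf2 and Sema6b had between 1 and 20 UMIs in the members of a library. Car4, a membrane-bound carbonic anhydrase, was the one with the most other neutrophils behind it, 95 in CEP and 113 in vehicle, with log2 ratios of -2.56 and -1.87, and of -2.18 and -1.74 without the marked cells. Ccl24, a chemokine that attracts eosinophils, had -1.94 in CEP and -2.23 in vehicle, and -2.03 and -0.33 without the marked cells. Acp5, an acid phosphatase of osteoclasts and macrophages, had -1.68 and -2.37, and -0.16 and 1.56 without the marked cells, on under 50 UMIs in each library.

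Across the cell gates, Isg15, Usp18, Cmpk2, Slfn4, Cxcl10 and Gbp2 were highest in members. Only the members were chosen by high rule UMIs, so this rank follows the choice and nothing is read from it. Isg15 stood at 6085 CPM in CEP and 7511 CPM in vehicle members, and next at 1460 and 1876 CPM in other neutrophils of the CEP and vehicle libraries. It stood at 1280 CPM in 346 CEP cells and 905 CPM in 439 vehicle cells with at least 5 UMIs of Ly6c2, Ccr2 and Plac8 and few of C1q. C1q cells had 636 CPM in the CEP library and 725 CPM in the vehicle library. Cells with at least 2 Cd3 UMIs had 348 and 320 CPM, and cells with at least 10 UMIs of Epcam, Krt8 and Krt18, called keratin cells, had 209 and 195 CPM. Granule-rich neutrophils, which have at least 10 UMIs of Camp, Ngp and Ltf and number 32 in the CEP and 79 in the vehicle library, had 530 and 462 CPM. They were deeper than the members, at medians of 7087 and 7286 UMIs. Slfn4 had another order, at 543 CPM in CEP and 585 CPM in vehicle granule-rich neutrophils, near the 447 and 640 CPM of other neutrophils and above the 9.03 and 5.87 CPM of C1q cells. In the cells gated on Ly6c2, Ccr2 and Plac8, Cmpk2 had 63.7 CPM in CEP and 35.4 CPM in vehicle, against 9.53 and 12.6 CPM in other neutrophils. Cxcl10 had 188 and 178 CPM there, against 53.9 and 55.3 CPM. Usp18 had 79.9 and 29.0 CPM, against 22.1 and 33.7 CPM. Gbp2 had 115 and 229 CPM, against 209 and 373 CPM.

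**Figure D4:**
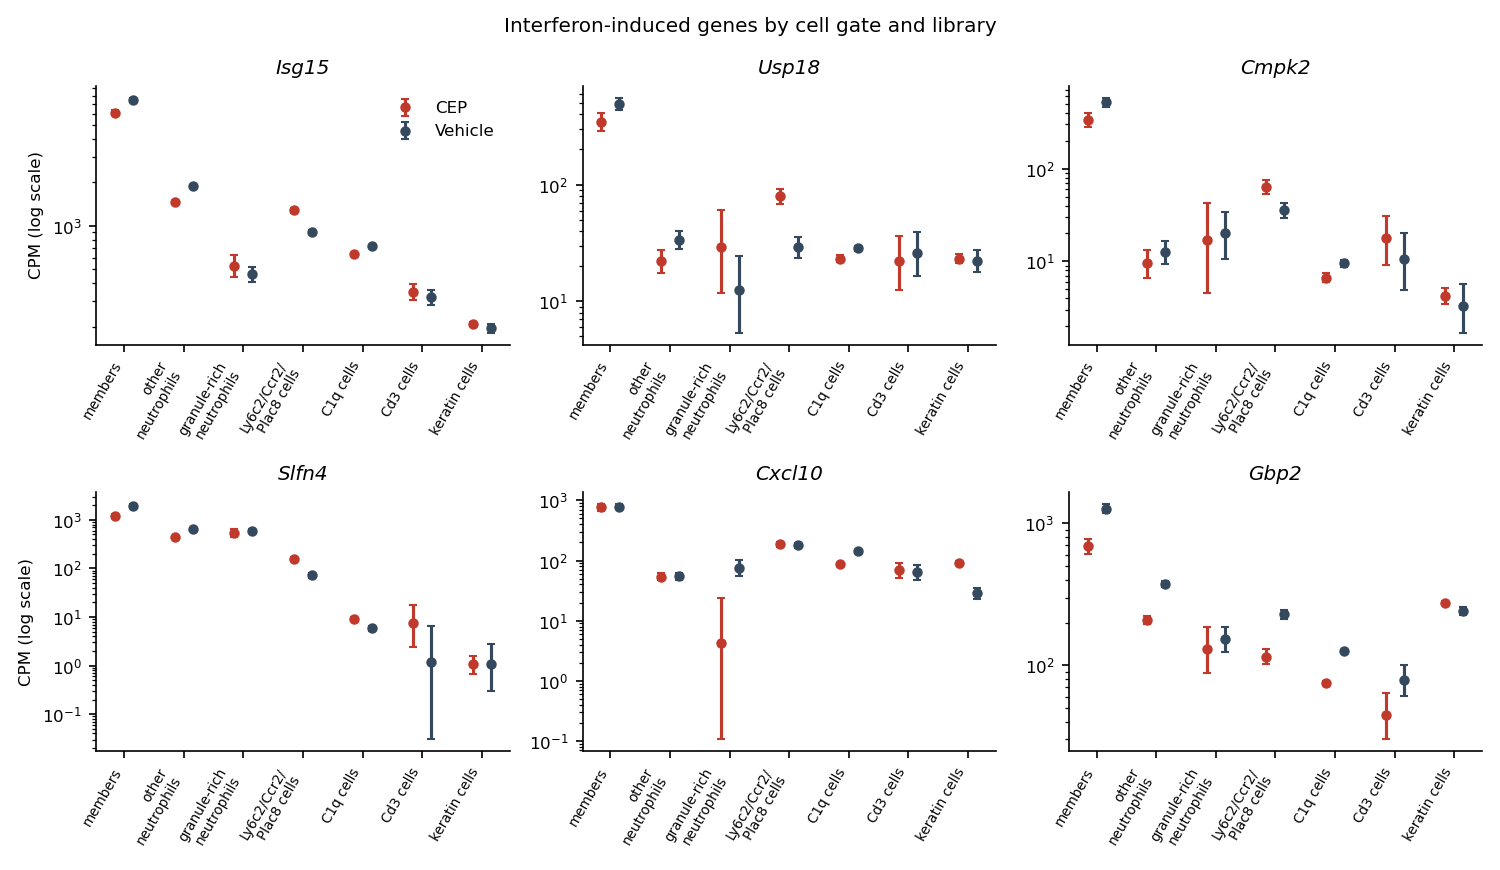
Level of 6 genes in CPM on a log axis in members, other neutrophils, granule-rich neutrophils and 4 further cell gates, CEP in red and vehicle in blue, with exact 95% counting intervals. Members stand highest for each gene, as at 6085 CPM in CEP and 7511 CPM in vehicle for Isg15, and Slfn4 is low outside neutrophils and Ly6c2 cells.

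No interferon was detected in the members. All 21 interferon genes, the 20 of type I and type III and Ifng, had 0 UMIs in CEP and in vehicle members. With 3 UMIs taken as the limit that a count of 0 allows, each gene could stand at up to 7.87 CPM in CEP members and 5.34 CPM in vehicle members. Over all kept cells the 20 genes gave 83 UMIs in the CEP library and 153 UMIs in the vehicle library. Ifnb1, which encodes interferon-beta, gave 59 of these in CEP and 142 in vehicle. Ifng gave 140 UMIs in the CEP library and 345 UMIs in the vehicle library. No relation between these UMIs and the members was tested.

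The last comparison was between CEP and vehicle members. Of 2140 genes with at least 50 UMIs in the members of both libraries together, 182 were at least 2-fold higher in CEP members, 8.5%, and 37 were lower, 1.73%. Without the marked cells 19 of 1572 genes were higher, 1.21%, and 10 were lower, 0.636%. The share of genes higher in CEP members was thus lower without the 12 marked CEP and 8 marked vehicle cells, over fewer measured genes. Over all cells, other neutrophils had 689 of 7187 genes higher in CEP and 24 lower, 9.59% and 0.334%. Their marked cells held 24.6% of the UMIs in CEP and 11.1% in vehicle. No count without these cells was made for other neutrophils, so nothing is read from their shares.

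Type I interferon genes lay on both sides of 0 between CEP and vehicle members, with more of them below it. Of 30 measured antiviral effectors, rule genes included, 18 were below 0 and 12 above. The interval was below 0 for 14 of them and above 0 for 3. Without the marked cells 15 of 29 were below 0. In other neutrophils 26 of 32 were below 0 in CEP over vehicle, with a median of -0.27. Without the marked cells 25 of 30 were, with a median of -0.13. The threshold on rule UMIs largely sets the level of Rsad2 in members of both libraries, so nothing is read from its 2697 CPM in CEP members and 3383 CPM in vehicle members. Isg15 had a log2 ratio of -0.30 (-0.38 to -0.23), and of 0.02 (-0.06 to 0.10) without the marked cells. Usp18 had -0.52 (-0.83 to -0.22) and -0.29 (-0.64 to 0.05), and Cmpk2 -0.61 (-0.92 to -0.31) and -0.37 (-0.72 to -0.04). Slfn4 stayed lower in CEP members, at -0.70 (-0.86 to -0.55) and -0.38 (-0.55 to -0.21). The list of type I genes had a median of -0.27 over 33 genes, and of -0.08 over 31 genes without the marked cells, where all genes had 0.01 and 0.03.

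Ifi27l2a and Bst2 were the type I genes farthest above 0. Ifi27l2a, which encodes a small membrane protein induced by interferon, stood at 1406 CPM in CEP members and 645 CPM in vehicle members, a log2 ratio of 1.13 (0.93 to 1.32), and of 1.52 (1.29 to 1.76) without the marked cells. In other neutrophils its ratio of CEP over vehicle was 0.44 (0.34 to 0.53). Bst2, which encodes tetherin, stood at 580 CPM in CEP members and 306 CPM in vehicle members, a ratio of 0.92 that became 0.05 (-0.50 to 0.57) without the marked cells. Ifit3b had 0.74 (0.18 to 1.31) and 1.25 (0.61 to 1.90), while its near copy Ifit3 had 0.25 (-0.18 to 0.67) and 0.77 (0.26 to 1.28). Ifit3 is a rule gene, so nothing is read from its ratios.

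Interferon-gamma genes were lower in CEP members, with and without the marked cells. Gbp2 stood at 690 CPM in CEP members and 1268 CPM in vehicle members, a log2 ratio of -0.88 (-1.09 to -0.67), and of -0.76 (-1.0 to -0.52) without them. Gbp5 had -1.24 (-1.73 to -0.79) and -0.94 (-1.49 to -0.45), and Gbp2b -1.04 (-1.43 to -0.67) and -0.77 (-1.2 to -0.37). Cd274 stood at 619 CPM in CEP members and 1196 CPM in vehicle members, a ratio of -0.95 (-1.17 to -0.73), and of -0.63 (-0.87 to -0.40) without the marked cells. Nos2 had -1.17 (-1.65 to -0.73) and -0.94 (-1.5 to -0.44). None of the 12 measured genes of the list was above 0 in either way, with a median of -0.67, and of -0.47 without the marked cells.

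Gbp2, Gbp5 and Cd274 were also lower in the other neutrophils of the CEP library. There Gbp2 had a log2 ratio of -0.84 (-0.97 to -0.71), Gbp5 of -0.74 (-1.11 to -0.38) and Cd274 of -0.71 (-0.81 to -0.60), and the list had a median of -0.44 over 15 genes. The difference between members and other neutrophils in this respect was not tested. MHC class I genes had a median of 0.07 over 18 genes in CEP over vehicle members, and H2-K1 and B2m stood at -0.01 and 0.01.

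Of the 8 genes named as lower in CEP members, Stfa2, Stfa3, Cstdc5 and Cstdc6 belong to the stefins, cysteine protease inhibitors of mouse neutrophils. They were picked for their low ratios and not from a list of stefins, so they say nothing of the family. Stfa2 stood at 367 CPM in CEP members, 32 of which had a UMI, and 1172 CPM in vehicle members, 91 of which had one, a log2 ratio of -1.67 (-1.95 to -1.41), and of -1.24 (-1.52 to -0.97) without the marked cells. Stfa3 stood at 57.7 CPM in CEP members and 294 CPM in vehicle members, a ratio of -2.32 (-3.06 to -1.70), and of -2.54 (-3.53 to -1.78) without them. Cstdc5 had -1.35 and Cstdc6 -1.88, and -0.95 and -1.42 without the marked cells. Other neutrophils had -0.93 for Stfa2 and -1.19 for Stfa3. Stefin genes are near copies of each other, so their single values are uncertain. Fam162a, a hypoxia-induced mitochondrial protein gene, had -1.19 (-1.43 to -0.96), and -0.83 (-1.08 to -0.58) without the marked cells.

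The 8 genes named as higher in CEP members came mostly from single deep cells. Gpnmb, a membrane glycoprotein of macrophages, had 92 UMIs in 4 CEP members and 0 UMIs in vehicle members, at least 45.2-fold higher with a floor of 3 UMIs over the vehicle members. Without the marked cells it had 1 UMI in CEP members. Spp1, which encodes osteopontin, stood at 1517 CPM in CEP members and 251 CPM in vehicle members, a log2 ratio of 2.59 (2.33 to 2.87), and of 0.06 (-0.59 to 0.66) without the marked cells. A single cell held 60.8% of the Lgals1 UMIs of CEP members and 72.0% of those of vehicle members, and the top cell held 70.2% and 70.0% for Hspd1. Fabp5, a fatty acid binding protein, had 2.37 (1.92 to 2.86), and 0.76 (0.11 to 1.39) without the marked cells. Thbs1, Id3 and Cxcl1, named as lower, also lay in few cells, and 92.3% of the Cxcl1 UMIs of vehicle members were in a single cell. Thbs1, Id3, Cxcl1 and the genes named as higher other than Spp1 and Fabp5 had under 50 UMIs in the members once the marked cells were left out.

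**Figure D5:**
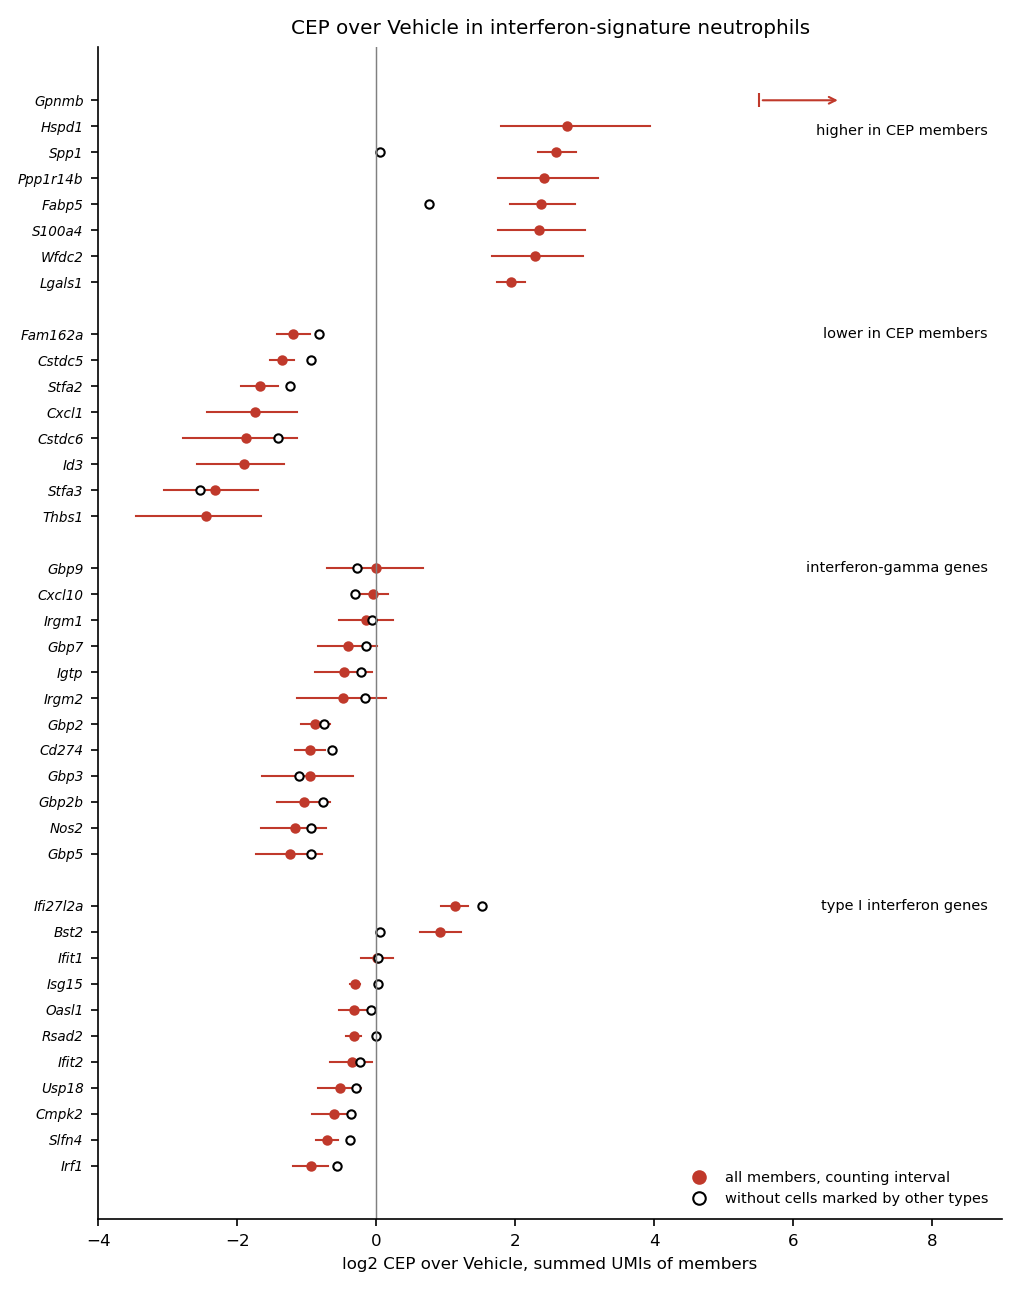
Log2 ratio of CEP over vehicle members on summed UMIs (horizontal axis) for the genes named by rule, the interferon-gamma list and selected type I genes, with exact 95% counting intervals in red and the value without the marked cells as open circles where at least 50 UMIs remained; the arrow is a lower bound. Gbp2 stays low at -0.88 and -0.76, while Spp1 stands at 2.59 with the marked cells and 0.06 without them.

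By the same rule applied without the marked cells, the genes farthest above 0 in CEP members were Ifi27l2a, Gadd45g, Nr4a1, Marcksl1, Ccl6, Midn, Ifit3b and Arl8b. Gadd45g, a stress-response gene, then had a log2 ratio of 1.22 (0.77 to 1.67). Ccl6, a chemokine of mouse myeloid cells, had 0.89 (0.70 to 1.08), against 0.49 (0.31 to 0.67) over all members. Those farthest below 0 were Stfa3, Stfa2, Cstdc5, Saa3, Cstdc6, Cstdc4, Fam162a and Gbp2. Saa3, an acute-phase protein gene, had -0.94 (-1.2 to -0.70) without the marked cells and -0.36 (-0.54 to -0.19) with them.

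Mitochondrially encoded genes were higher in CEP members. Together they stood at 6017 CPM in CEP members and 3737 CPM in vehicle members, and at 6480 and 3956 CPM in other neutrophils of the CEP and vehicle libraries. The median log2 ratio was 0.99 over 11 measured genes in members, 0.99 over 7 without the marked cells, and 1.09 over 13 in other neutrophils. All measured mitochondrial genes were above 0 in each of these sets. Whether they have a part in the other differences was not tested. Tumour-associated genes had a median of -0.15 over 28 genes in CEP over vehicle members, and of 0.10 over 27 genes without the marked cells, so no direction was drawn for them.

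The genes of the study's title could hardly be measured in the members. Prkcz, which encodes protein kinase C zeta, had 0 UMIs in CEP and in vehicle members, under the same limits of 7.87 and 5.34 CPM. Parp1, a DNA damage sensor, stood at 18.4 CPM in CEP members, 3 of which had a UMI, and 12.5 CPM in vehicle members, 6 of which had one. Rela and Nfkb1, subunits of NF-kB, stood at 78.7 and 68.2 CPM in CEP members and at 67.7 and 85.5 CPM in vehicle members, with log2 ratios of 0.22 (-0.52 to 0.95) and -0.31 (-1.07 to 0.39). At these counts no difference was detectable for Parp1, Rela or Nfkb1. Nfkbia, a target and inhibitor of NF-kB, stood at 1590 CPM in CEP members and 2630 CPM in vehicle members, a log2 ratio of -0.73 (-0.86 to -0.59), and of -0.26 (-0.41 to -0.11) without the marked cells.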

How the data were processed

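Both libraries hold raw UMI counts per gene and barcode from the 10x Chromium platform, deposited by the authors as filtered matrices. Per the file headers they were made with Cell Ranger 7.1.0, whereas the submitters' processing notes name Cell Ranger 5.0.1 and the mm10 build, and no source used here says whether reads in introns were counted. The 9621 CEP and 9989 vehicle barcodes held 88721774 and 81208647 UMIs. The members and gene lists were chosen with earlier results of these data known. UMIs were summed over the cells of each set with Python 3.11.15, numpy 2.4.6, scipy 1.17.1 and pandas 2.3.3, and ratios of CPM were taken with 0.5 UMI added. Genes needed at least 50 UMIs in the cells compared. Intervals of 95% were Clopper-Pearson for shares, exact Poisson for levels and exact conditional binomial for ratios of CPM. Those for ratios of member shares used a normal approximation on the log2 scale. Only the intervals for ratios of CPM were checked on simulated data. These were Poisson counts, which the intervals assume, so the check says nothing of sums held by few cells. With 1 library per group no test was run. Named genes were, leaving out rule, mitochondrial, ribosomal, haemoglobin and predicted genes, the 15 with the highest smaller log2 ratio of the 2 libraries, the 10 with the lowest larger one, and for CEP over vehicle members the 8 in each direction with the interval bound farthest from 0, rule genes kept. Scrublet in scanpy 1.11.5 marked 1 CEP and 0 vehicle cells by its automatic threshold and was taken as not working, so cells were not removed as doublets in the values reported, and the highest 8% of its scores were left out as an alternative. The alternative without cells marked by genes of other types was added after the data were seen. Of 472 list genes, 5 were not analysed here.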

Additional observations from a re-analysis of the deposited data

Results flagged for a closer look

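For 7 of the genes named between CEP and vehicle members, the members lay on one side of other neutrophils in the CEP library and on the other side in the vehicle library. The difference between the libraries was not tested, since each group is 1 library. The values are the log2 ratio of members over other neutrophils in CEP minus that in vehicle. For Stfa3 it was -1.13, from -0.78 in CEP and 0.35 in vehicle, and the signs stayed at -1.20 and 0.42 without the marked cells. Fam162a had -0.89, from -0.51 in CEP and 0.37 in vehicle, and -0.25 and 0.44 without the marked cells. The value was 0.996 for Spp1, from 0.31 in CEP and -0.69 in vehicle, and both were below 0 without the marked cells, at -0.77 and -0.59. S100a4, a calcium-binding protein gene of motile cells, had 1.86, from 0.94 in CEP and -0.92 in vehicle. Without the marked cells both signs of S100a4 turned, to -0.30 and 1.13, on 2 UMIs in CEP members and 2 in vehicle members. Cxcl1, a chemokine that attracts neutrophils, had -3.24, from -1.60 in CEP and 1.64 in vehicle, and both were below 0 without the marked cells, at -0.26 and -2.63. Id3 had -3.06, from -1.26 in CEP and 1.80 in vehicle, and -0.10 and -0.27 without the marked cells. Thbs1, which encodes thrombospondin 1, had -2.64, from -0.81 in CEP and 1.83 in vehicle, and -0.13 and -2.83 without the marked cells, on 2 UMIs in CEP members and 0 in vehicle members. In vehicle members a single cell held 92.3% of the Cxcl1, 79.5% of the Id3 and 59.3% of the Thbs1 UMIs.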

How the results depend on the processing

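No paired analysis was possible because each group is 1 library and no test was run. Of the values that answer a comparison, set beside each alternative, 114 moved by less than the counting interval or stayed within 1.5 times the count, and 14 moved further. For a list median the margin was the median of the counting margins of its single genes. That is not an interval of the list median itself. The log2 ratio of the member share stayed between -0.79 and -0.44, the interferon median of members over other neutrophils between 1.68 and 2.08 in CEP and 1.49 and 1.78 in vehicle, the interferon-gamma median in CEP over vehicle members between -0.91 and -0.36, and the genes higher in both libraries between 71 and 140. The count of genes lower in both libraries, 40, was 23 with a threshold of 3 rule UMIs, 364 with members set by rule UMIs per 10000, 122 with the mean CPM of cells, 102 and 15 with a gene minimum of 20 and 100 UMIs, 18 after the median of all genes was taken off, and 72 without the marked cells. The tumour-associated median of members over other neutrophils, -0.07 in CEP, was 0.20 with members set per 10000 UMIs, 0.12 with cells thinned to 1000 UMIs and 0.13 without the marked cells, and in vehicle 0.27 after the median of all genes was taken off. In CEP over vehicle members it was 0.0635 with thinned cells, 0.0632 with cells of 1000 to 5000 UMIs and 0.10 without the marked cells. Of the named genes, 667 values kept their place, 78 moved further and 5 turned: Ccl24 in CEP to 0.43 and Spp1 in CEP over vehicle to -0.26 with cells of 1000 to 5000 UMIs, Acp5 in vehicle to 0.0351 with the mean CPM of cells, and Id3 in CEP over vehicle to 0.39 without the highest Scrublet scores and 0.61 with at least 4 neutrophil genes. Apart from the alternatives with fewer cells or another gene minimum, the cause was not tested. These counts leave out values that fell under the gene minimum in an alternative. A change of sign was counted only where the main value lay at least its counting margin from 0. Left out without the marked cells were Acp5 in vehicle, from -2.37 to 1.56, and in CEP over vehicle Thbs1, from -2.45 to 3.37. Cxcl1 in CEP over vehicle, from -1.74 to 1.68, was also left out there. Depth limits the precision for the members: 119 CEP members held 381100 UMIs and 214 vehicle members 561675.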
